A study of Homo sapiens with 12 samples.

Results

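Transcript levels of 7 genes were examined in the human breast cancer cell line CAMA-1, an established luminal line that expresses the oestrogen receptor (ER). They encode the pocket proteins (RB1, RBL1 and RBL2), a pair of histone demethylases (KDM5A and KDM5B) and a pair of histone deacetylases (HDAC1 and HDAC2). The members were chosen by gene symbol. Each of the 7 matched exactly 1 row among the 60612 named rows of the count table, and all 7 were among the 11803 genes with enough reads to be tested. Cells labelled wild-type were given DMSO as vehicle, abemaciclib (an inhibitor of the kinases CDK4 and CDK6) at 100 nM, fulvestrant (which degrades ER) at 5 nM, or abemaciclib and fulvestrant together, for which the labels do not restate the doses. Each of the 4 groups held 3 biological replicates, sequenced from the 3′ end of polyadenylated RNA to between 3299119 and 5164667 counted reads per library. The labels give no length of treatment, which was 5 days per the published description of the experiment. Levels are read counts normalised to library size (CPM), and at this depth the 7 genes held between 17 and 866 reads each. In bulk RNA, fewer cells of a kind and less RNA per cell cannot be told apart.

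Pocket proteins restrain the cell cycle by binding E2F transcription factors. Rb, the product of RB1, binds mainly the activating E2Fs, whereas p107 (RBL1) and p130 (RBL2) pair with the repressive E2Fs and, with the MuvB core, form the DREAM complex, in which p130 is the usual pocket protein of resting cells. Cyclin-dependent kinases phosphorylate pocket proteins and release them from E2F, and RBL1 is itself a classical E2F-regulated gene. KDM5A, first described as an Rb-binding protein, and KDM5B remove methyl groups from lysine 4 of histone H3, a mark of active promoters. HDAC1 and HDAC2 are close paralogues that serve as the catalytic subunits of the Sin3, NuRD and CoREST co-repressor complexes, and pocket proteins recruit them to E2F-bound promoters.

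The libraries carried the labelled identity. All 8 luminal epithelial markers (among them GATA3, FOXA1, ESR1 and KRT19) had more than 10 reads in every library, whereas the immune, endothelial and basal markers had at most 7 reads in any. Of 6 fibroblast and mesenchymal markers, COL1A2, PDGFRB, DCN and LUM had no reads, while COL1A1 held between 48 and 102 reads and COL3A1 between 12 and 40 reads per library. Both were higher with fulvestrant than in DMSO (COL1A1 0.48, adjusted p 0.0194, and COL3A1 1.41, adjusted p 0.000259, log2 fold changes), and the summed level of the list was 18.2 to 22.1 CPM in DMSO and 24.3 to 35.02 CPM in treated libraries. Their part in the results below was not tested. All 15 markers of E2F activity were lower than in DMSO with abemaciclib, with fulvestrant and with both, and the 4 ER target markers were higher with abemaciclib and lower in both groups that received fulvestrant. Mitochondrial transcripts took 12.0 to 12.5% of reads in DMSO and 15.6 to 20.6% in treated libraries, and leaving them out changed no call for the 7 genes. Fulvestrant replicate 3 was the least alike of the fulvestrant libraries, with correlations across genes of 0.978 to replicate 1 and 0.970 to replicate 2. Replicates 1 and 2 correlated at 0.981, and replicate 2 had the highest mitochondrial share, 20.6%. Values that rest on fulvestrant replicate 3 are given with and without it.

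Abemaciclib alone lowered 3 of the 7 transcripts and raised 1, while 3 did not pass the test. Among all genes tested, 41.2% passed in this comparison (quasi-likelihood test of edgeR with p-values adjusted by Benjamini-Hochberg, threshold 0.05), 20.5% higher and 20.7% lower. RBL1, HDAC1 and HDAC2 fell and KDM5B rose. Fulvestrant alone also lowered RBL1, HDAC1 and HDAC2 and raised KDM5B and KDM5A, 5 of 7 against a background of 51.0% (25.3% higher and 25.7% lower). With both drugs 4 of 7 passed, RBL1, HDAC1 and HDAC2 being lower and KDM5B higher, against a background of 55.2% (27.7% higher and 27.5% lower). These treatments moved a large part of all genes, so the counts alone do not set the 7 genes apart. The median log2 fold change of the 7 was -0.080, -0.064 and -0.34 in the 3 comparisons, against 0.00046, 0.0075 and 0.010 over all genes tested. The 3 comparisons share the DMSO libraries and are not independent of one another.

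**Figure D1:**
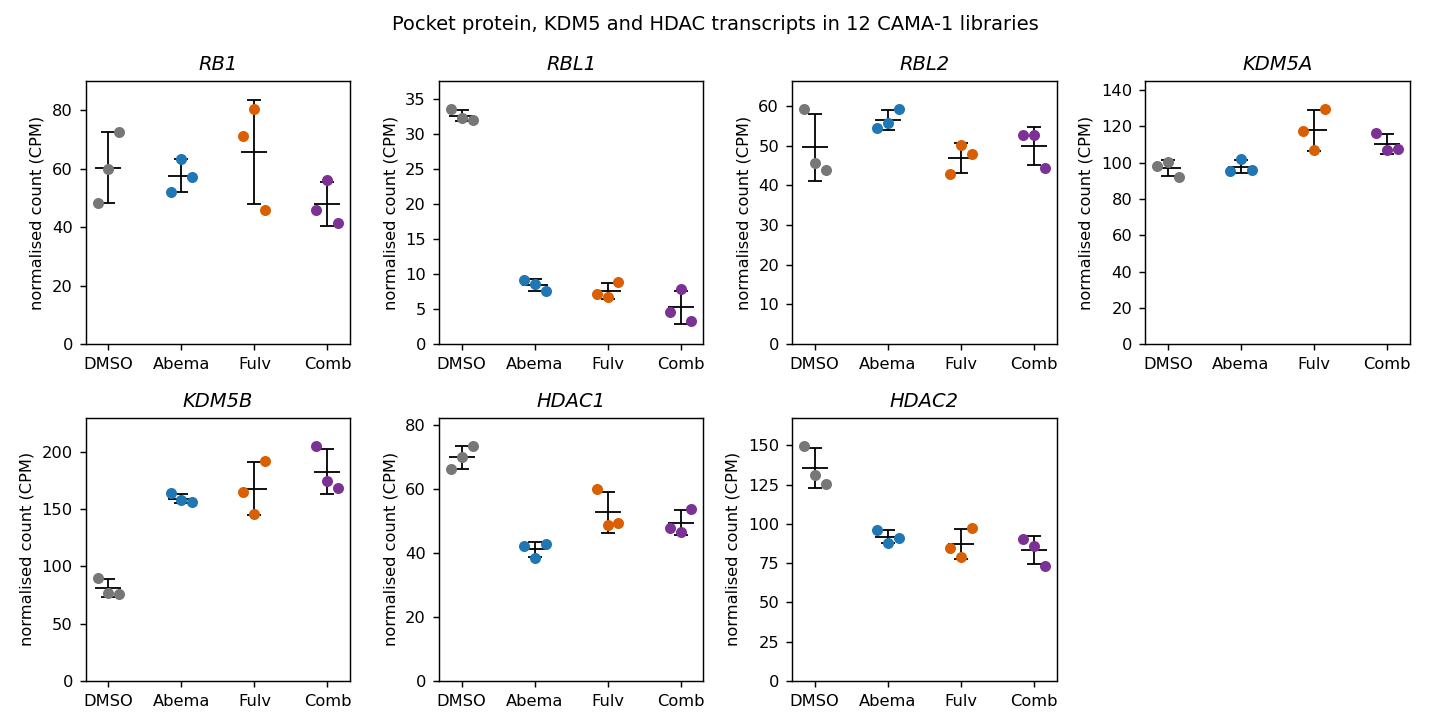
Normalised read count (CPM, vertical axes starting at 0) of each of the 7 transcripts in the 12 libraries, with 1 point per library; horizontal lines are group means and bars are SD of 3 libraries. RBL1, HDAC1 and HDAC2 lie below DMSO and KDM5B above it in every treated library, whereas RB1 and RBL2 overlap with DMSO in every treated group.

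RBL1, which encodes p107 (chromosome 20, positions 36996349 to 37095997 on the minus strand, GRCh38), changed most. Its levels were 33.5, 32.3 and 32.0 CPM in the DMSO libraries and 9.20, 8.61 and 7.58 CPM with abemaciclib. With fulvestrant they were 7.17, 6.77 and 8.89 CPM, and with both drugs 4.57, 7.86 and 3.30 CPM. Every treated library thus lay far below every DMSO library. Relative to DMSO the log2 fold change was -1.93 ± 0.19 (SE) with abemaciclib (adjusted p 5.58e-09), -2.08 ± 0.20 with fulvestrant (adjusted p 1.41e-09) and -2.63 ± 0.21 with both (adjusted p 2.1e-11). These are falls of 73.8%, 76.4% and 83.9%. Only 1.31% of the genes tested had a fold change as low or lower with abemaciclib. The difference between the single drugs was -0.15 on the log2 scale (95% interval -0.64 to 0.34; adjusted p 0.689). The combination was lower than abemaciclib alone (-0.70 ± 0.25, adjusted p 0.0313), but the ranges of the libraries overlapped. That call was lost with DESeq2 (adjusted p 0.0614) and without any one of abemaciclib replicates 1 and 2 and combination replicates 1 and 3 (values -0.63, -0.69, -0.62 and -0.43). RBL1 was the member with the fewest reads, 17 to 46 per treated library, so counting error weighs most on it.

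The promoters of RBL1, RBL2 and KDM5B are shown because these genes respond differently to the drugs. Each sequence is 300 bases from RefSeq (GRCh38.p14), 250 before and 50 after the annotated start, written 5′ to 3′ along the gene. Capitals mark matches to the E2F motif, searched on both strands as TTTCCCGC, TTTCGCGC, TTTGCCGC or TTTGGCGC.
RBL1 (chr20:37095948-37096247, minus strand): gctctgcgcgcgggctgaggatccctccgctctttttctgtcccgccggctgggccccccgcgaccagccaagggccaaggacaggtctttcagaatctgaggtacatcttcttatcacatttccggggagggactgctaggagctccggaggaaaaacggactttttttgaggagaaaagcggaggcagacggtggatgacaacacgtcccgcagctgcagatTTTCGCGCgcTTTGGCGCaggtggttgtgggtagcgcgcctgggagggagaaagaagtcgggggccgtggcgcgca
RBL2 (chr16:53434221-53434520, plus strand): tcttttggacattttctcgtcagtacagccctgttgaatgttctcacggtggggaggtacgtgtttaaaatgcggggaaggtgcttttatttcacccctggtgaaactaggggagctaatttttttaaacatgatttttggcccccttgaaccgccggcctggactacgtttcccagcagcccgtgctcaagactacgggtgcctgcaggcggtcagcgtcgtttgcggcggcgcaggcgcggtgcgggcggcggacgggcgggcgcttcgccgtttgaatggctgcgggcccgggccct
KDM5B (chr1:202808372-202808671, minus strand): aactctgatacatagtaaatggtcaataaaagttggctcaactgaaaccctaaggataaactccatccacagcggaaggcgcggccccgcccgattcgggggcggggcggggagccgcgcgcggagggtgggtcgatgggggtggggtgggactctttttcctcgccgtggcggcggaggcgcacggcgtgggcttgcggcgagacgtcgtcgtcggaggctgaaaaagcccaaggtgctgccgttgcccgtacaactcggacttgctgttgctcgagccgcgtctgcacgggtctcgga

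The RBL1 window held 2 such matches, TTTCGCGC beginning 26 bases and TTTGGCGC beginning 16 bases before the start, both on the strand of the gene. Of the 35116 promoter windows in the table, 3.31% held at least 1 match. None was found in the windows of KDM5B, KDM5A or HDAC1, nor in either RBL2 window of the table, the one shown and another, whose starts lie 494 and 1642 bases inside the GENCODE gene. This says only that these letters are not in those windows. The RB1 and HDAC2 windows in the table belong to starts 172706 and 40160 bases inside the GENCODE genes and were not considered. The cell cycle homology element TTTGAA, a DREAM-bound motif present in 15.2% of windows, occurred once among the windows considered, 25 bases into the transcribed part of the RBL2 window. The full palindromic oestrogen response element is found in 0.057% of windows and in none of the windows considered. The promoters at the GENCODE starts of RB1, RBL2 and HDAC2 were not examined.

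RBL2, which encodes p130 (chromosome 16, 53433977 to 53491648, plus strand), did not pass in any comparison. DMSO libraries stood at 59.1, 45.6 and 43.8 CPM and abemaciclib libraries at 54.4, 55.6 and 59.1 CPM. Fulvestrant gave 42.7, 50.2 and 47.9 CPM and the combination 52.7, 52.7 and 44.3 CPM. DMSO replicate 1 was as high as the highest abemaciclib library, and the other DMSO libraries were below all of them. The log2 fold change with abemaciclib was 0.20 ± 0.12 (95% interval -0.04 to 0.44; adjusted p 0.18), and without DMSO replicate 1 it was 0.33 and passed (adjusted p 0.032). Against DMSO, fulvestrant gave -0.06 (interval -0.31 to 0.18) and the combination 0.02 (-0.22 to 0.27). All abemaciclib libraries lay above all fulvestrant and combination libraries, but neither difference passed the quasi-likelihood test. Fulvestrant against abemaciclib gave -0.26 (interval -0.51 to -0.019, adjusted p 0.102), and the combination against abemaciclib -0.18 (-0.42 to 0.06, adjusted p 0.255). The last exon of RBL2 overlaps 609 bases of AKTIP on the opposite strand, and no strand setting is given for the counting. AKTIP held 29 to 84 reads per library and rose with abemaciclib (0.80 ± 0.26, adjusted p 0.018). The part of those reads in the RBL2 value was not tested.

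RB1 (chromosome 13, 48303744 to 48599436, plus strand) had the highest coefficient of variation of the 7 genes in every group except the combination, where that of RBL1 was higher. It stood at 48.4, 59.9 and 72.8 CPM in DMSO and at 52.0, 63.4 and 57.4 CPM with abemaciclib. Fulvestrant libraries gave 71.2, 80.4 and 45.8 CPM, and combination libraries 46.0, 56.2 and 41.6 CPM. All 4 groups overlapped, and the coefficient of variation of RB1 reached 27.2% in the fulvestrant group. No comparison passed: the log2 fold change against DMSO was -0.08 ± 0.20 with abemaciclib (95% interval -0.52 to 0.36), 0.10 ± 0.20 with fulvestrant (-0.34 to 0.55) and -0.34 ± 0.20 with both (-0.79 to 0.10). The intervals span changes of either sign, so a value that did not pass does not show that RB1 was unchanged. Fulvestrant replicate 3 was the lowest of its group by a wide margin. Without it, RB1 was lower in the combination than with fulvestrant (-0.66, adjusted p 0.00508, against -0.45 and 0.432 with all libraries), and lower in the combination than in DMSO (-0.35, adjusted p 0.0231), and higher with fulvestrant than with abemaciclib (0.39, adjusted p 0.0365). The combination value against DMSO also passed with no filter on low counts (-0.34, adjusted p 0.0201) and when only those 2 groups were fitted (-0.35, adjusted p 0.042).

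KDM5B, a demethylase often highly expressed in luminal breast cancer (chromosome 1, 202724495 to 202808487, minus strand), was the single member raised by every treatment. DMSO libraries stood at 89.9, 76.4 and 76.1 CPM. Abemaciclib brought it to 164, 158 and 156 CPM, fulvestrant to 165, 146 and 192 CPM, and both drugs to 205, 175 and 168 CPM. No treated library came near a DMSO library. The log2 fold change was 0.98 ± 0.10 with abemaciclib (adjusted p 9.68e-09), 1.06 ± 0.10 with fulvestrant (adjusted p 1.24e-09) and 1.18 ± 0.10 with both (adjusted p 1.05e-10), that is 1.98-fold, 2.09-fold and 2.27-fold. All combination libraries lay above all abemaciclib libraries, with a log2 difference of 0.20 (95% interval 0.00065 to 0.39) that did not pass after adjustment (adjusted p 0.116) and passed when only those groups were fitted (0.19, adjusted p 0.0333). Fulvestrant libraries overlapped with both: fulvestrant against abemaciclib gave 0.08 (-0.12 to 0.28; adjusted p 0.6) and the combination against fulvestrant 0.12 (-0.08 to 0.32; adjusted p 0.694).

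KDM5A (chromosome 12, 280057 to 389320, minus strand) moved little. Its levels were 98.2, 101 and 92.2 CPM in DMSO and 95.6, 102 and 96.0 CPM with abemaciclib, 118, 107 and 129 CPM with fulvestrant, and 116, 107 and 107 CPM with both. DMSO and abemaciclib libraries overlapped, and all fulvestrant-treated libraries were above them. With abemaciclib the log2 fold change was 0.01 ± 0.09, with a 95% interval of -0.17 to 0.20. Fulvestrant raised it by 0.29 ± 0.09 (1.22-fold, adjusted p 0.00834). Without fulvestrant replicate 3, the highest of the group, the value was 0.21 and missed the threshold (adjusted p 0.0525). The combination gave 0.18 ± 0.09 (adjusted p 0.0757), which passed with upper-quartile scaling (0.21, adjusted p 0.041). KDM5A was also higher with fulvestrant than with abemaciclib (0.27 ± 0.09, adjusted p 0.0205), a call lost without fulvestrant replicate 3 (0.20, adjusted p 0.108), without abemaciclib replicates 1 or 3 (0.25 and 0.26) and with no filter on low counts (0.26, adjusted p 0.0572).

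HDAC1 (chromosome 1, 32292083 to 32333635, plus strand) fell in every treatment and furthest with abemaciclib alone. DMSO libraries held 66.5, 70.1 and 73.6 CPM and abemaciclib libraries 42.2, 38.6 and 43.0 CPM. Fulvestrant gave 60.0, 48.8 and 49.5 CPM and the combination 47.9, 46.7 and 54.0 CPM. The abemaciclib libraries were below all other libraries. The log2 fold change against DMSO was -0.77 ± 0.11 with abemaciclib (adjusted p 2.17e-06), -0.41 ± 0.11 with fulvestrant (adjusted p 0.00223) and -0.50 ± 0.11 with both (adjusted p 0.000247), falls of 41.2%, 24.8% and 29.3%. HDAC1 was higher with fulvestrant than with abemaciclib (0.36 ± 0.11, adjusted p 0.0177), a call lost without fulvestrant replicate 1 (0.26, adjusted p 0.128) or abemaciclib replicate 2 (0.31, adjusted p 0.0847). Adding fulvestrant to abemaciclib gave 0.27 ± 0.11 (adjusted p 0.0667), which passed with library totals as the only scaling (0.32, adjusted p 0.0363) and when only those groups were fitted (0.26, adjusted p 0.0496).

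HDAC2 (chromosome 6, 113933028 to 114011308, minus strand) fell in every treatment. DMSO libraries held 150, 131 and 125 CPM, abemaciclib libraries 96.0, 88.1 and 91.2 CPM, fulvestrant libraries 84.7, 78.7 and 97.3 CPM and combination libraries 90.2, 86.0 and 73.4 CPM. Treated libraries overlapped with each other and lay below all DMSO libraries. The log2 fold change was -0.56 ± 0.10 with abemaciclib (adjusted p 4.58e-05), -0.63 ± 0.10 with fulvestrant (adjusted p 5.46e-06) and -0.70 ± 0.10 with both (adjusted p 8.58e-07), or falls of 32.0%, 35.4% and 38.4%. Between treated groups the largest difference was -0.14 (combination against abemaciclib, 95% interval -0.35 to 0.06; adjusted p 0.281). None of the 7 genes shared a 50-base stretch of the last 500 bases of its main transcript with a transcript of another gene.

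**Figure D2:**
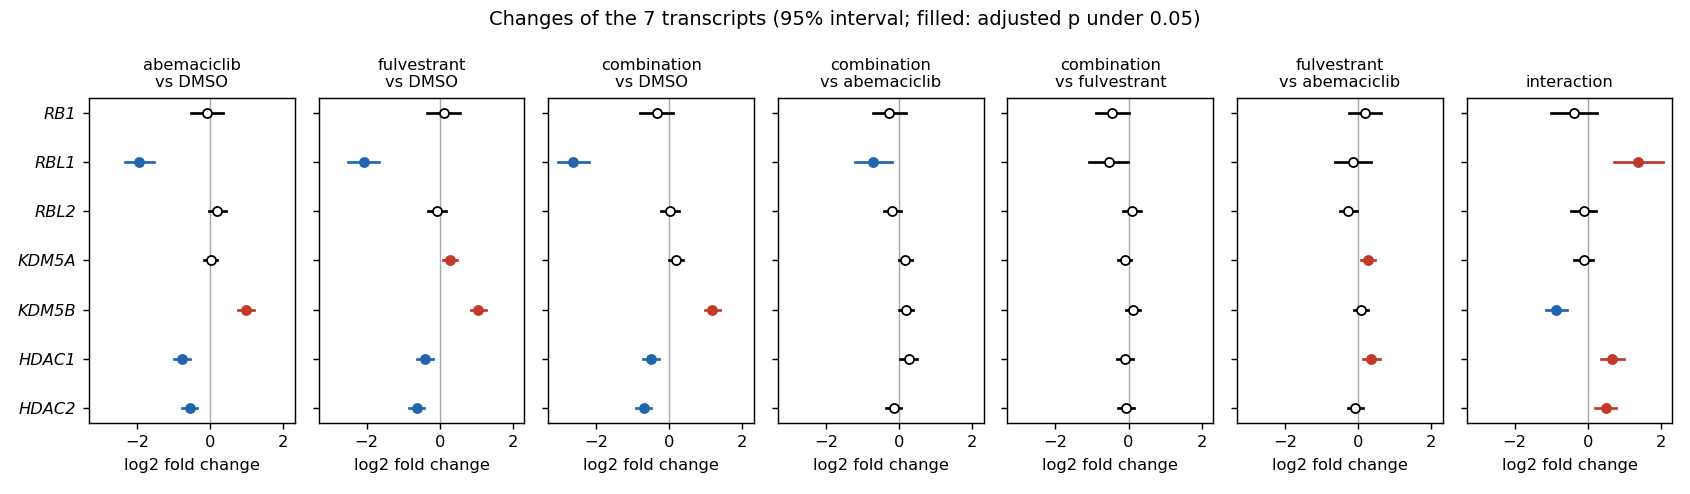
Log2 fold change of each transcript (horizontal axis) in 6 pairwise comparisons and in the interaction, with 95% intervals; filled symbols passed an adjusted p of 0.05, red higher and blue lower. RBL1, HDAC1 and HDAC2 are lower and KDM5B is higher in each comparison with DMSO, and no symbol is filled in the comparison of combination with fulvestrant.

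Adding abemaciclib to fulvestrant moved none of the 7 members past the threshold (edgeR quasi-likelihood test), in a comparison in which 1.92% of all genes passed (0.297% higher and 1.63% lower). At an unadjusted p under 0.05 there was 1 such member, RBL1 (-0.55, p 0.0441, adjusted p 0.411), and DESeq2 called 0. Adding fulvestrant to abemaciclib moved 1 of 7, RBL1, against 33.5% of all genes (15.9% higher and 17.7% lower). Comparing the single drugs directly, 2 of 7 members, KDM5A and HDAC1, were higher with fulvestrant than with abemaciclib, against 29.0% of genes past the threshold (13.4% higher and 15.5% lower).

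Whether the response to abemaciclib differs in the presence of fulvestrant was tested by the interaction, the change with fulvestrant minus the change without it. This test, and the comparisons of adding a drug above, assume that the combination used the doses of the single drugs. The labels do not restate those doses. The interaction passed for 4 of 7 members, against 21.1% of all genes (9.49% above 0 and 11.6% below). For RBL1 the abemaciclib change was -1.93 without and -0.55 with fulvestrant, an interaction of 1.39 ± 0.33 (adjusted p 0.00309), and without combination replicate 2 it was 0.95 and missed the threshold (adjusted p 0.05 after rounding). KDM5B changed by 0.98 without and 0.12 with fulvestrant, an interaction of -0.86 ± 0.14 (adjusted p 5.13e-05). HDAC1 changed by -0.77 and -0.09 (0.68 ± 0.15, adjusted p 0.00222) and HDAC2 by -0.56 and -0.07 (0.49 ± 0.14, adjusted p 0.0137). In each of the 4 the change with abemaciclib was smaller in size in the presence of fulvestrant, which alone moved the transcript in the same direction. RB1, RBL2 and KDM5A gave interactions of -0.37, -0.11 and -0.11, none past the threshold. The RB1 interaction passed without fulvestrant replicate 3 (-0.58, adjusted p 0.025).

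Because members of a pair are counted in the same library, their ratio does not depend on how libraries are scaled. Only changes of a ratio between groups are read, since levels of different genes were not compared. RBL2 reads outnumbered RBL1 reads by 1.76, 1.41 and 1.37 times in DMSO libraries, by 5.91, 6.46 and 7.80 times with abemaciclib, by 5.97, 7.42 and 5.38 times with fulvestrant and by 11.5, 6.71 and 13.4 times with both. The mean log2 ratio was above that of DMSO by 2.14 with abemaciclib, 2.02 with fulvestrant and 2.72 with both, and every treated library exceeded every DMSO library. For KDM5B over KDM5A the ratio was below 1 in all DMSO libraries (0.915, 0.760 and 0.825) and above 1 in all treated libraries. Its log2 value was 0.97, 0.77 and 0.99 above that of DMSO in the same order, and fulvestrant libraries lay below those of abemaciclib and of the combination. For HDAC2 over HDAC1 the groups overlapped in all comparisons with DMSO, with differences of 0.21, -0.23 and -0.20, whereas abemaciclib libraries had ratios of 2.12 to 2.28, above those of fulvestrant (1.41 to 1.97) and of the combination (1.36 to 1.88). Exact two-sided permutation tests of 3 libraries against 3 cannot give a p below 0.1. They gave 0.1 for each difference in which the groups did not overlap, or 0.18 when adjusted over the 18 tests of 3 ratios in 6 comparisons.

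**Figure D3:**
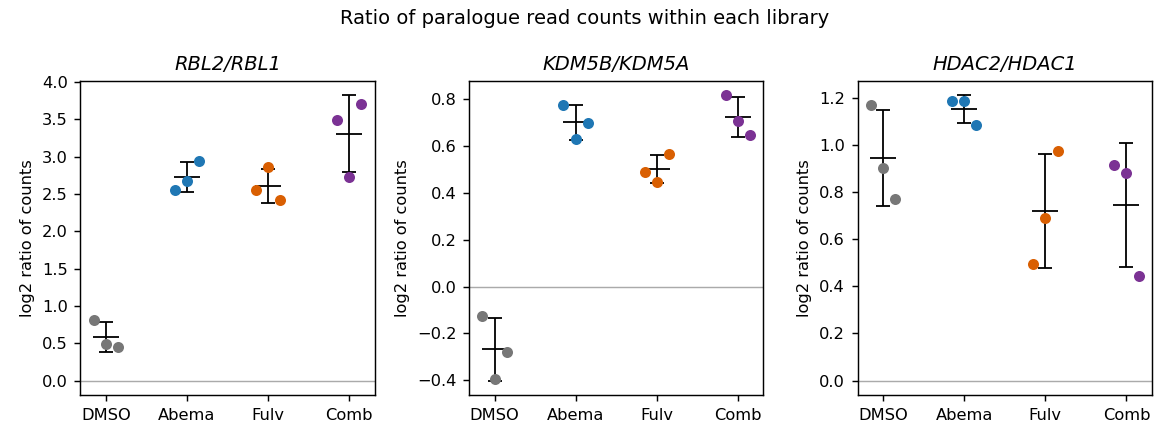
Log2 ratio of read counts of 2 paralogues within each library (vertical axes; 0 means equal counts), with 1 point per library, group means and SD. RBL2/RBL1 and KDM5B/KDM5A are higher in all treated libraries than in DMSO. HDAC2/HDAC1 has its highest mean with abemaciclib alone, where the libraries overlap with those of DMSO.

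The partners of these proteins were counted in lists written from general knowledge, but with earlier results of these data known. The shares called in them are therefore not independent of these data. Of 13 E2F, DP and MuvB genes tested (E2F factors, their dimerization partners and the DREAM core), 7 were lower and 1 higher with abemaciclib, and 10 were lower and 0 higher both with fulvestrant and with the combination (61.5%, 76.9% and 76.9% called, against 41.2%, 51.0% and 55.2% of all genes). The median log2 fold change was -0.46, -0.83 and -0.86, with the medians over all genes tested near 0 as given above. E2F2, an activating E2F, went from 45.4 CPM in DMSO to 8.91 with abemaciclib, 4.72 with fulvestrant and 2.22 with both. FOXM1 and MYBL2, which join MuvB to activate mitotic genes, went from 53.5 to 12.9, 8.97 and 1.88 CPM and from 251 to 84.3, 23.8 and 0.0802 CPM. Among 17 cyclin, CDK, CDK inhibitor and phosphatase genes tested, 12 were lower and 3 higher with abemaciclib (88.2% called), and 13 lower and 3 higher with both drugs (94.1%). Cyclins E2 and A2 (CCNE2 and CCNA2), partners of the kinase CDK2 that also phosphorylates pocket proteins, stood at 31.8 and 94.1 CPM in DMSO and at 4.64 and 8.38 CPM with abemaciclib. Inhibitors of CDKs moved both ways with abemaciclib, and most of those tested were lower. CDKN1B (-0.50), CDKN1C (-1.34), CDKN2A (-0.45) and CDKN2D (-0.99, log2 fold changes) passed as lower, as did CDKN2C, and only CDKN2B and CDKN1A were higher. CDKN2C, an inhibitor of CDK4 and CDK6, went from 20.2 to 1.82 CPM, whereas CDKN2B, which acts on the same kinases, rose from 7.19 to 26.8 CPM (1.89, adjusted p 1.27e-09) and CDKN1A (p21) from 15.3 to 46.4 CPM (1.59, adjusted p 1.64e-11).

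Genes of the complexes that carry HDAC1 and HDAC2 are read against the 41.2% of all genes that passed with abemaciclib and the 55.2% with both drugs. In the Sin3 complex 8 of 17 genes were lower and 1 higher with abemaciclib (52.9% called), and 7 lower and 3 higher with both drugs (58.8%). SAP30, a Sin3 subunit, was lower, with log2 fold changes of -1.69 and -2.43 (adjusted p 4.77e-09 and 6.05e-12), while the scaffold SIN3B rose with abemaciclib (0.85, adjusted p 1.95e-07). In NuRD 5 of 12 genes were lower and 1 higher with abemaciclib and likewise with the combination (50% called in each). Shares called in either direction in these 2 lists lay near the backgrounds, but most of the called genes were lower. Over all genes tested, 20.7% were lower and 20.5% higher with abemaciclib, and 27.5% lower and 27.7% higher with both drugs. The lists share genes and are not independent. For example, RBBP7 is counted in Sin3 and NuRD, and KDM1A in CoREST and the lysine 4 list below. CCNA2 is counted among the cyclins and the E2F markers, and CCND1 among the cyclins and the ER markers. MBD3 was lower in both (-0.58 and -0.72), and MTA1 rose with abemaciclib (0.54, adjusted p 0.0207). The CoREST list held 3 higher and 2 lower genes of 8 with abemaciclib and 5 higher and 3 lower with both drugs (62.5% and 100% called). Its demethylase KDM1A was lower (-0.56 and -0.88), and PHF21A, a reader of unmethylated lysine 4 of histone H3, was higher (0.63 and 0.79). Of 9 other HDAC genes none fell and 3 rose with either single drug, and 4 rose with the combination. The shares called, 33.3%, 33.3% and 44.4%, were below those over all genes (41.2%, 51.0% and 55.2%). HDAC5 went from 12.1 CPM in DMSO to 19.8, 32.6 and 34.0 CPM and HDAC7 from 93.8 to 158, 159 and 147 CPM. Of the other class I enzymes, HDAC8 was higher with the combination (39.4 CPM in DMSO and 55.4 CPM; 0.48, adjusted p 0.00788) and did not pass with either single drug. HDAC3, the deacetylase of NCoR complexes, was at 115 CPM in DMSO and at 122 to 130 CPM in treated groups and did not pass.

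Of 17 genes of the machinery that writes and removes methylation of lysine 4 of histone H3, 4 were lower and 0 higher with abemaciclib. With fulvestrant 4 were lower and 4 higher, and with both drugs 3 were lower and 3 higher. The shares called, 23.5%, 47.1% and 35.3%, were below those over all genes tested (41.2%, 51.0% and 55.2%). RBBP5 and WDR5, core subunits of the methyltransferase complexes, stood at 59.4 and 76.5 CPM in DMSO, at 41.7 and 59.7 CPM with abemaciclib and at 51.1 and 47.7 CPM with both drugs. With both drugs WDR5 passed (-0.68, adjusted p 3.47e-06) and RBBP5 did not (-0.21, adjusted p 0.123). Among 15 other chromatin proteins known to bind Rb, 8 were lower and 1 higher with abemaciclib. With fulvestrant 7 were lower and 4 higher, and with the combination 7 were lower and 6 higher. The shares called were 60%, 73.3% and 86.7%, against 41.2%, 51.0% and 55.2% of all genes. The maintenance DNA methyltransferase DNMT1 went from 356 to 158, 141 and 123 CPM and the DNA end-resection factor RBBP8 from 113 to 57.8, 51.6 and 50.8 CPM. KDM4A, a demethylase of lysines 9 and 36 of histone H3, rose with abemaciclib (0.90, adjusted p 2.66e-06).

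**Figure D4:**
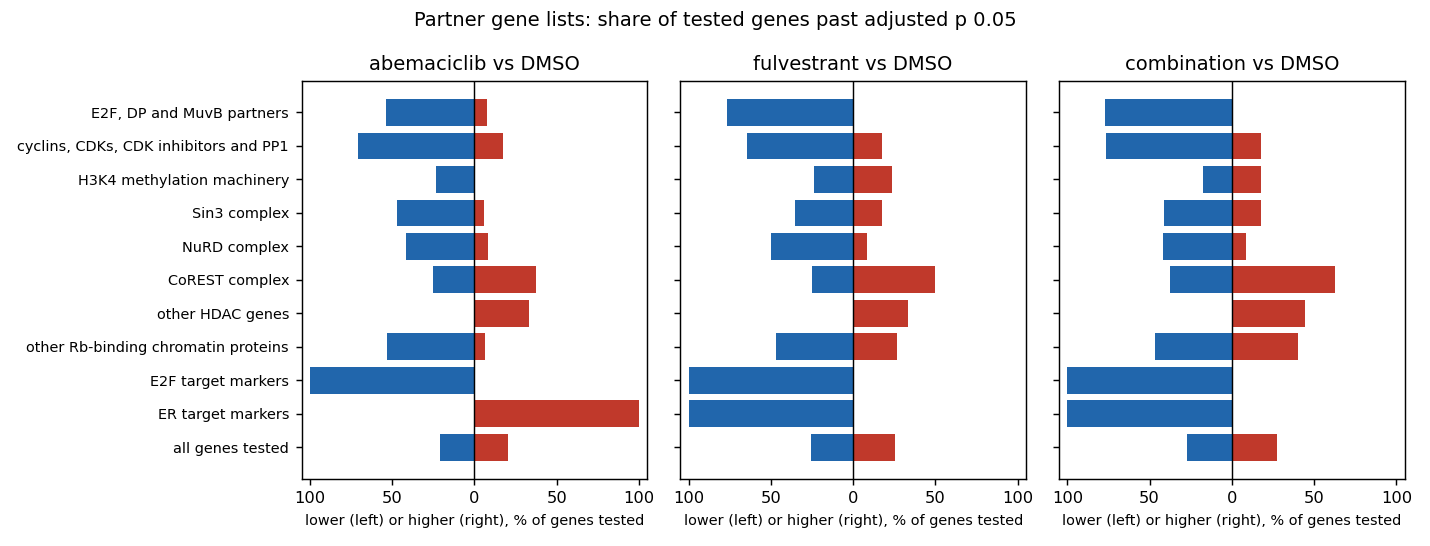
Share of the tested genes of each list that passed an adjusted p of 0.05, lower to the left in blue and higher to the right in red, in the 3 comparisons with DMSO. The bottom bars give all 11803 genes tested (20.7% lower and 20.5% higher with abemaciclib), and the E2F target markers reach 100% lower in all 3.

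Genes with the most similar profile over the 12 libraries are given as a description, since the libraries form 4 groups and r then largely follows the group means. RBL1 was closest to GMNN, which encodes the replication licensing inhibitor geminin (r = 0.981), to the lamin gene LMNB1 (0.980) and to NOM1 (0.979). KDM5B was closest to the keratin gene KRT7 (0.986), RAB11FIP1 (0.981) and S100A11 (0.978). HDAC2 was closest to F12 (0.984), NELFE (0.981) and RBBP8 (0.981), and HDAC1 to DHRS13 (0.967), VKORC1 (0.962) and SRA1 (0.950). KDM5A was closest to ZNF281 (0.962), VWA8 (0.944) and HEBP2 (0.922). RB1 had MAD2L1BP (0.933), MAT2B (0.924) and MGST2 (0.913) as its nearest profiles. RBL2, with the least similar neighbours, had CDC16 (0.876), CRK (0.858) and PHLPP2 (0.847).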

How the data were processed

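The deposited table holds the authors' raw counts of reads per gene symbol for 12 libraries made with a 3′ messenger RNA kit. Per the labels and the study's methods, reads were aligned to hg38 with STAR and counted with featureCounts 2.0.1; no strand setting is given. Of 60656 rows, 44 had no name and held 0 reads.

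From these counts, edgeR 4.0.16 (R 4.3.3) kept genes by group (minimum count 10, minimum total 15), scaled libraries by TMM and fitted 1 model of 4 group means over 12 libraries with robust quasi-likelihood dispersions (common biological coefficient of variation 0.0918). P-values were adjusted by Benjamini-Hochberg over 11803 genes. SEs derive from the F statistic, and 95% intervals from the SE. The code was tested on simulated counts. Alternatives were DESeq2 1.42.0, other scalings and filters, fits of only the groups compared, a replicate block, each library left out and, chosen after seeing the data, mitochondrial transcripts left out.

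The 7 members and all lists were chosen with earlier results of these data known. List genes are named from the up to 3 largest changes past the threshold with abemaciclib and with the combination, at a mean of at least 5 CPM. HDAC3 and the CDK inhibitors other than CDKN2C were named after their values were seen. Similar profiles were ranked by Pearson r of log2 CPM (prior count 2) among genes with a mean of at least 10 CPM. Gene positions are from the GENCODE annotation of GRCh38.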

Additional observations from a re-analysis of the deposited data

Results flagged for a closer look

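The change produced by abemaciclib differed with and without fulvestrant for 4 of the 7 genes, by the test of the difference itself (edgeR quasi-likelihood test of the interaction, 12 libraries). Among all genes tested, 21.1% passed (9.49% above 0 and 11.6% below). The test assumes that the combination used the doses of the single drugs, which the labels do not restate. On the log2 scale the difference was 1.39 ± 0.33 for RBL1 (adjusted p 0.00309), -0.86 ± 0.14 for KDM5B (adjusted p 5.13e-05), 0.68 ± 0.15 for HDAC1 (adjusted p 0.00222) and 0.49 ± 0.14 for HDAC2 (adjusted p 0.0137). For RBL1 it depended on combination replicate 2, the library with the most RBL1 reads of its group: without it the value was 0.95 (adjusted p 0.05 after rounding, past the threshold no longer). The other 3 passed under every alternative run, each left-out library included, HDAC2 only narrowly (adjusted p up to 0.0496 with 1 library left out).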

How the results depend on the processing

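Falls of RBL1, HDAC1 and HDAC2 and the rise of KDM5B against DMSO kept their direction and passed under every alternative run, each left-out library included. Of 973 log2 fold changes of the 7 genes under alternatives, 930 kept direction and side of the threshold, 14 came to pass, 13 ceased to pass and 16 changed sign, all of the last with an adjusted p far above the threshold; the cause was not tested. Depth limits RBL1 in treated libraries (17 to 46 reads).

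With library totals as the only scaling, KDM5A with abemaciclib against DMSO was -0.050, and 2 members passed between combination and abemaciclib, HDAC1 being 0.32. With upper-quartile scaling KDM5A passed in the combination against DMSO (0.21). With no filter on low counts RB1 passed in the combination against DMSO (-0.34) and against fulvestrant (-0.44, making 1 member), and KDM5A no longer passed between the single drugs (0.26, leaving 1 member). Fitting only the groups compared, RB1 passed in the combination against DMSO (-0.35), 4 members passed between combination and abemaciclib (RB1 -0.27, KDM5B 0.19 and HDAC1 0.26 in addition to RBL1), and 125 genes passed between combination and fulvestrant. With at least 10 counts required in every library 91 genes passed there, against 227. With DESeq2 0 members passed between combination and abemaciclib (RBL1 -0.71).

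Leaving out each library in turn, values with abemaciclib against DMSO ranged from -0.20 to 0.082 for RB1, 0.13 to 0.33 for RBL2 and -0.017 to 0.042 for KDM5A. With fulvestrant against DMSO they ranged from -0.061 to 0.31 for RB1, -0.13 to 0.073 for RBL2 and 0.21 to 0.35 for KDM5A. With the combination against DMSO they ranged from -0.47 to -0.18 for RB1 and -0.051 to 0.15 for RBL2. Between combination and abemaciclib RBL1 ranged from -1.13 to -0.43 and HDAC1 from 0.20 to 0.31, with 0 to 2 members passing. Between combination and fulvestrant RB1 ranged from -0.66 to -0.28, HDAC1 from -0.17 to 0.0086 and HDAC2 from -0.13 to 0.021, with 0 to 1 members and 146 (without combination replicate 3) to 588 (without fulvestrant replicate 3) genes passing. Between fulvestrant and abemaciclib RB1 ranged from 0.019 to 0.39, KDM5A from 0.20 to 0.34, KDM5B from -0.032 to 0.17 and HDAC1 from 0.26 to 0.41, with 1 to 2 members passing. The interaction ranged from -0.58 to -0.20 for RB1 and 0.95 to 1.64 for RBL1. The log2 ratio of KDM5B to KDM5A ranged from -0.024 to 0.060 between combination and abemaciclib, and that of HDAC2 to HDAC1 from -0.087 to 0.18 between combination and fulvestrant.

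Replicate numbers are shared by the groups in the labels, but same-numbered libraries did not deviate together (correlations from -0.21 to 0.12, over 0.1 in 2 of 18 pairs; 5 of 12 libraries were closest to their own number). The highest correlation between libraries of different groups was 0.30, for DMSO replicate 1 and fulvestrant replicate 3, and its cause was not tested. With the replicate number as a block, 4799, 5978 and 6472 genes passed against DMSO with abemaciclib, fulvestrant and both, and no call of a member changed.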
